A study of Mus musculus with 16 samples.

Results

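The distal end of each mouse autosome was described as the accessible regions that start within 3 Mb of the largest region end on that chromosome. By this rule 3954 of 124444 autosomal regions belonged to a distal end, or 3954 of the 127646 regions in the table. They took 3.18% of the autosomal regions and 2.38% of the span the regions cover. No measured signal entered the choice. The outermost accessible region, not the end of the chromosome sequence, was the zero point of every distance.

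Mouse autosomes have their centromere close to one tip, so each carries a proximal end next to the centromere and a distal end at the far tip of its long arm. Telomeres are arrays of a short repeat bound by a protective protein complex, and the unique sequence next to them can hold genes right up to the array. The distal ends of mouse autosomes hold well-known gene groups, among them an imprinted domain on chromosome 7, where genes are read from one parental copy only, and the HoxC cluster on chromosome 15, which encodes factors that pattern the body axis.

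The series measured open chromatin by ATAC-seq, in which a transposase places sequencing adaptors into accessible DNA. All samples were mouse embryonic stem cells of the genotype FOXD3-iKO, cultured in L2i medium, with a treatment time of 24 h. The 8 groups were cells given tamoxifen (4HT), which was added to induce loss of FOXD3, a pluripotency-associated factor of the forkhead family, in the fractions G1, ES, LS and G2, and cells given EtOH in the same fractions, as the control. The fractions were sorted by DNA content with DAPI, and ES and LS are given as the labels name them. The EtOH cells carry the same inducible allele. Each group had 2 libraries, 16 in all, and is represented by 1 pooled column of signal, so that no value within a group has a replicate error.

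A level is the signal of a region divided by the worth of 1 read in its column, with 0 where the column held no read, averaged over the 8 columns. Multiples of the 1-read value are not corrected for the depth of a column. The implied depth of the columns ranged from 6.78 to 11.2 M reads, and the median distal-end region stood at 1 to 1.27 times the 1-read value in each column. The labelled cell type was checked at windows around transcription start sites (TSSs): 10 of 10 embryonic stem cell markers were found, with a median level of 1.87, against 1.26 for all named windows, 1.39 for neuroectoderm, 1.34 for mesendoderm, 1.298 for fibroblast and 1.19 for primitive endoderm markers. In pooled bulk material a smaller share of cells with an open region cannot be told apart from less signal per cell.

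The highest distal-end regions were mostly promoters, and the promoters of the 6 highest regions that touch a TSS are shown. Each is the 250 bases before the TSS, 5′ to 3′ on the strand of the gene, from RefSeq on GRCm38.p6, and each lies wholly inside its accessible region. Capitals mark matches on either strand to the GC box GGGCGG, the CCAAT box CCAAT, the ETS site CCGGAAG, the forkhead site TGTTTAC and the telomere repeat TTAGGG.
Sp1: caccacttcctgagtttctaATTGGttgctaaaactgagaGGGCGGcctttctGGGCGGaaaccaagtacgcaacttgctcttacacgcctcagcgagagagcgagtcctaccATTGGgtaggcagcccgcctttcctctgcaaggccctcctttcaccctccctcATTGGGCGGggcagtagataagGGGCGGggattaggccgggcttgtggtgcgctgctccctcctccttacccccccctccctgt
Tarbp2: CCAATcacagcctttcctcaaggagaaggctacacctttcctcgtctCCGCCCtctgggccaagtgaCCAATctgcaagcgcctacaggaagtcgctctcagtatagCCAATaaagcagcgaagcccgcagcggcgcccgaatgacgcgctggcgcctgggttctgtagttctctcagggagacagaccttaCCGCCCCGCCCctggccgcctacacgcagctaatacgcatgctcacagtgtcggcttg
P4hb: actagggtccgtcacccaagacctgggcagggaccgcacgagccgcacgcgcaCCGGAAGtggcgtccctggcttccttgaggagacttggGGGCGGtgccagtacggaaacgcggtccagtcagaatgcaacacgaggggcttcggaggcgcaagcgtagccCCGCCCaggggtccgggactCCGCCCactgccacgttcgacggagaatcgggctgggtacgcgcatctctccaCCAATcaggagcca
Nadsyn1: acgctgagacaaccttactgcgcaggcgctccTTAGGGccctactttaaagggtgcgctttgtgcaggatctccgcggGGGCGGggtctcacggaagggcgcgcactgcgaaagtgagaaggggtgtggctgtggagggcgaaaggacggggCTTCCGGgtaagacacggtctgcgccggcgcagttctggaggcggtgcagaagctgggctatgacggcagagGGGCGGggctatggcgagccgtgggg
Cbx5: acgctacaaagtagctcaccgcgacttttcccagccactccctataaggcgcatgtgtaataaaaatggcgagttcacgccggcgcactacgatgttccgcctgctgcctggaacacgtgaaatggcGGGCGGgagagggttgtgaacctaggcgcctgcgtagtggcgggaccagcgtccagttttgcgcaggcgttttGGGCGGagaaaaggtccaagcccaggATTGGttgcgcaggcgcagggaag
Bahcc1: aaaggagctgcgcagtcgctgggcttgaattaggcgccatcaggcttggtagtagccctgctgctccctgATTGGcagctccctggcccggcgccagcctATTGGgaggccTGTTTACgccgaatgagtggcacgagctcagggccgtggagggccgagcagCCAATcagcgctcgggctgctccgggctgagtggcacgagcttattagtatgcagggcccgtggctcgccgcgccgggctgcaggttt

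The windows lie at chr15:102406066-102406315 on the plus strand for Sp1, chr15:102517942-102518191 on the plus strand for Tarbp2, chr11:120573254-120573503 on the minus strand for P4hb, chr7:143822853-143823102 on the minus strand for Nadsyn1, chr15:103239853-103240102 on the minus strand for Cbx5 and chr11:120232697-120232946 on the plus strand for Bahcc1. The Sp1 window held 4 GC boxes and 3 CCAAT boxes, and a CCAAT box and a GC box overlap in the run ATTGGGCGG. The Tarbp2 window held 3 of each, 2 of its GC boxes overlapping in CCGCCCCGCCC. P4hb held 3 GC boxes, 1 CCAAT box and 1 ETS site, and Nadsyn1 held 2 GC boxes, 1 ETS site and 1 telomere repeat. Cbx5 held 2 GC boxes and 1 CCAAT box. Bahcc1 held no GC box, 3 CCAAT boxes and 1 forkhead site. Their GC content lay between 59.2% and 66.8%.

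Over all 1074 promoter windows of the distal ends, 36.6% held a GC box, against 32.9% of the 30322 windows of the other autosomal sequence, and 33.0% of all 31396. The CCAAT box was in 33.1% of the distal-end windows, against 33.8% elsewhere and 33.7% of all. The ETS site was in 8.29%, against 6.97% elsewhere and 7.01% of all. The forkhead site was in 3.45%, against 3.20% elsewhere and 3.21% of all. A single TTAGGG was in 8.66%, against 9.32% elsewhere and 9.30% of all. The median GC content of protein-coding promoters was 57.2% in the distal ends and 56.0% elsewhere, and their median observed-to-expected CpG ratio was 0.585 in the distal ends, against 0.546 elsewhere. These are descriptions of letters and were not tested.

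Accessible regions were more densely packed in the distal ends than in the rest of the autosomes, and so were protein-coding genes. The distal ends held 69.4 regions per Mb, against 51.5 per Mb elsewhere, and were the denser part on 16 of 19 chromosomes. They held 724 protein-coding genes, or 12.7 per Mb, against 8.52 per Mb elsewhere, but were richer in genes on only 10 of the 19. The exceptions in region density were chromosomes 3, 17 and 18, whose distal ends held 41.0, 37.7 and 26.0 regions per Mb, against 46.6, 54.5 and 48.9 per Mb in the rest of the same chromosomes. Chromosome 8 contributed most regions, 304, and chromosome 18 fewest, 78. The higher density was not bounded at the 3 Mb limit: bins of 250 kb from 3 to 5 Mb held 54.3 to 87.6 regions per Mb. Those of the outermost 1 Mb held 53.5 to 63.6 per Mb, and those from 1 to 3 Mb 58.9 to 90.3.

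**Figure D1:**
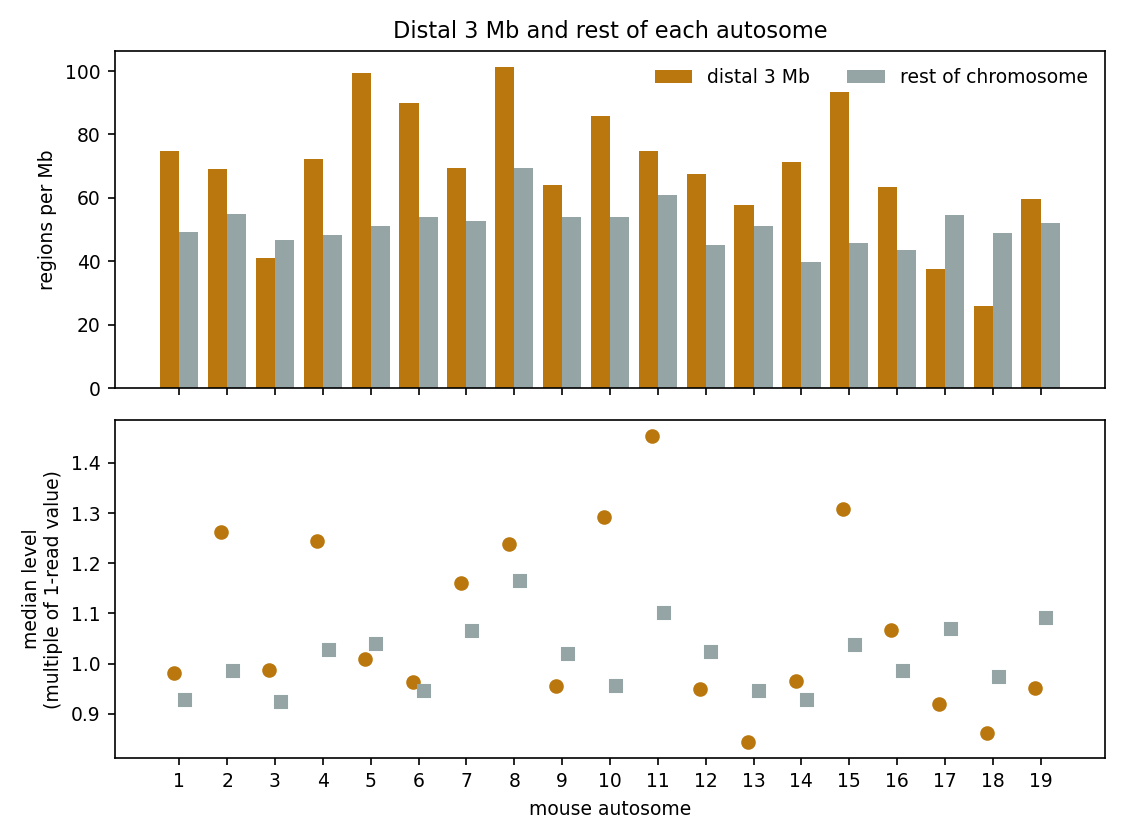
Accessible regions per Mb (upper panel, bars) and median level in multiples of the 1-read value (lower panel, points) in the distal 3 Mb and in the rest of each of the 19 autosomes. The distal end is denser on all but chromosomes 3, 17 and 18, while its median level ranges from 0.843 on chromosome 13 to 1.45 on chromosome 11 and exceeds that of the rest on 12 chromosomes.

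Of the 3954 regions, 801 (20.3%) lay within 1000 bp of a TSS and are called proximal below, against 17.4% of the other autosomal regions. A further 968 (24.5%) lay 1 to 10 kb away, 1859 (47.0%) lay 10 to 100 kb away and 326 (8.24%) lay farther than 100 kb. The median distance to a TSS was 12715 bp, against 15641 bp elsewhere. The median width was 261 bp, against 252 bp. Among gene families named by symbol, all 9 genes with symbols in Hoxc, 27 of 55 Krt keratin genes and 6 of 11 Ccr chemokine receptor genes fell in a distal end. Of the Olfr odorant receptor genes 70 did so, and 1350 lay elsewhere.

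The median level of the distal-end regions was 1.09, against 1.01 for the other autosomal regions and 1.12 for the regions of the proximal ends, the first 3 Mb of region starts at the centromeric side. The lower and upper quartiles of the distal-end levels were 0.763 and 1.46, and the highest was 10.5. A read was found in every column for 1359 regions (34.4%), against 30.6% elsewhere and 37.1% in the proximal ends. For 2588 distal-end regions it was found in some columns, and for 7 in none. A level of 5 was reached by 20 distal-end regions (0.506%), against 0.539% of the other autosomal regions. By column, the difference of medians from the other regions averaged 0.0448, and an exact two-sided sign-flip permutation test over the 8 columns gave p = 0.25 (0.406 after Benjamini-Hochberg adjustment over 13 such tests). In 4HT G1, ES and G2 and in EtOH ES and LS both medians were exactly 1, the 1-read value. The other columns were all positive, so with these ties the test could give no p below 0.25 and cannot decide. Without the G2 columns it was 0.0149, and among regions read in every column -0.000464. Against the proximal ends, the difference was -0.0244 with an exact permutation p of 0.5 (adjusted 0.591). It passed as -0.175 among regions read in every column and as -0.110 by means (unadjusted exact permutation p = 0.00781 each).

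At promoters the difference passed the test. Proximal regions of the distal ends had a median level of 1.49, against 1.45 for other proximal regions. Those at the proximal ends of the chromosomes alone stood higher, at 1.64. The mean difference by column between the distal ends and all other proximal regions was 0.0559, with the smallest p that sign patterns over 8 columns allow (exact permutation p = 0.00781, adjusted 0.0339). The TSS windows of 5000 bp gave a difference of the same sign. Their 1122 windows of the distal ends had a median level of 1.32, against 1.26 for 33921 others. The difference by column averaged 0.0610 and was positive in 8 of 8 columns (exact permutation p = 0.00781, adjusted 0.0339). These windows read the same 8 columns and were tested after the values were seen, so they are not separate evidence. All sign-flip p-values measure how far the columns agree on one fixed set of regions. For regions away from a TSS the median was 1.01 in the distal ends, against 0.939 elsewhere, and the difference by column of 0.0133 did not pass (exact permutation p = 1). Medians by column lie at or near the 1-read value for such weak regions, so this test could hardly find a difference. By means the non-proximal difference was 0.0539 (unadjusted exact permutation p = 0.0234). The share of non-proximal regions with a read was higher by 3.33 points (unadjusted p = 0.0156 by the same test). The promoter difference is small: it fell to 0.0228 (exact permutation p = 0.266) among regions read in every column and to 0.0317 (p = 0.141) for ends of 5 Mb, and by means in place of medians it was -0.332 (p = 0.00781), where the highest proximal level was 10.5 in the distal ends and 7160 elsewhere.

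Among the 19 distal ends, the median level tended to be higher where coding genes were denser, with exceptions. Chromosome 11 had the highest median level, 1.45, with 28 coding genes per Mb and 37.9% of its regions at a TSS. Chromosome 15 followed at 1.31 and chromosome 10 at 1.29. The distal end of chromosome 10 was the most gene-rich, with 43.3 coding genes per Mb. At the other extreme stood chromosome 13 at 0.843, with 7.67 coding genes per Mb, and chromosome 18 at 0.862, with 2 per Mb. Chromosome 8 went against this, with a level of 1.24 at 4 coding genes per Mb, and so did chromosome 9, with 0.955 at 18.7. Across the 19 ends, gene density and median level had a Pearson r of 0.759 and a Spearman rho of 0.677, and the share of proximal regions and median level an r of 0.743 and a rho of 0.739. The points share the same 8 columns, and chromosomes are not replicates.

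The highest single region, of level 10.5 and 1599 bp, covered the start of Sp1, which encodes the zinc finger factor that binds GC boxes. Its signal was 7.38, 8.11, 11.2 and 11.9 times the 1-read value in 4HT cells in G1, ES, LS and G2, against 11.0, 7.74, 10.6 and 16.5 in EtOH cells. It was high in every column, highest in G2 of both treatments, and the treatments overlapped. Next came a region of 112 bp at chr13:120025719-120025830, 1549 bp from the start of the predicted gene Gm36079, at a level of 9.57. It stood at 6.69, 11.0, 7.14 and 10.3 in 4HT cells, against 12.2, 11.7, 9.01 and 8.52 in EtOH cells, with no fraction on top in both treatments.

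A region of level 8.66 covered the starts of Tarbp2, a partner of Dicer in microRNA processing, and of the kinase gene Map3k12. It had 7.15, 8.53, 10.3 and 9.25 in 4HT cells, against 8.36, 6.94, 8.18 and 10.6 in EtOH cells. The start of P4hb, which encodes protein disulfide isomerase of the endoplasmic reticulum, stood at 6.76 and varied most among these promoters. Its values were 4.99, 5.31, 6.96 and 6.85 in 4HT cells, against 8.18, 3.002, 6.40 and 12.4 in EtOH cells, so that both its lowest and its highest value came from EtOH columns.

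A shared start of Nadsyn1, an enzyme of NAD synthesis, and Dhcr7, the last enzyme of cholesterol synthesis, stood at 6.41. It had 6.10, 4.36, 10.6 and 5.32 in 4HT cells, against 7.54, 5.09, 6.69 and 5.53 in EtOH cells. The region at the starts of Cbx5, which encodes heterochromatin protein HP1 alpha, and Hnrnpa1, a splicing factor gene, stood at 6.39. It had 4.87, 4.21, 9.06 and 7.02 in 4HT cells, against 5.96, 6.28, 5.82 and 7.90 in EtOH cells. In both regions the 4HT value in LS was the highest of the 8, and the others overlapped between treatments.

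The remaining regions among the 10 highest were the starts of Bahcc1 at 6.25, Sp4, a relative of Sp1, at 5.76 and Rab5b, a small GTPase gene of early endosomes, at 5.66, and a region 1510 bp from the start of Lama5 at 5.57. Lama5 encodes a laminin chain of basement membranes. Its region had 4.51, 6.99, 8.67 and 4.61 in 4HT cells, against 3.51, 4.92, 6.09 and 5.31 in EtOH cells, highest in LS in both treatments.

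**Figure D2:**
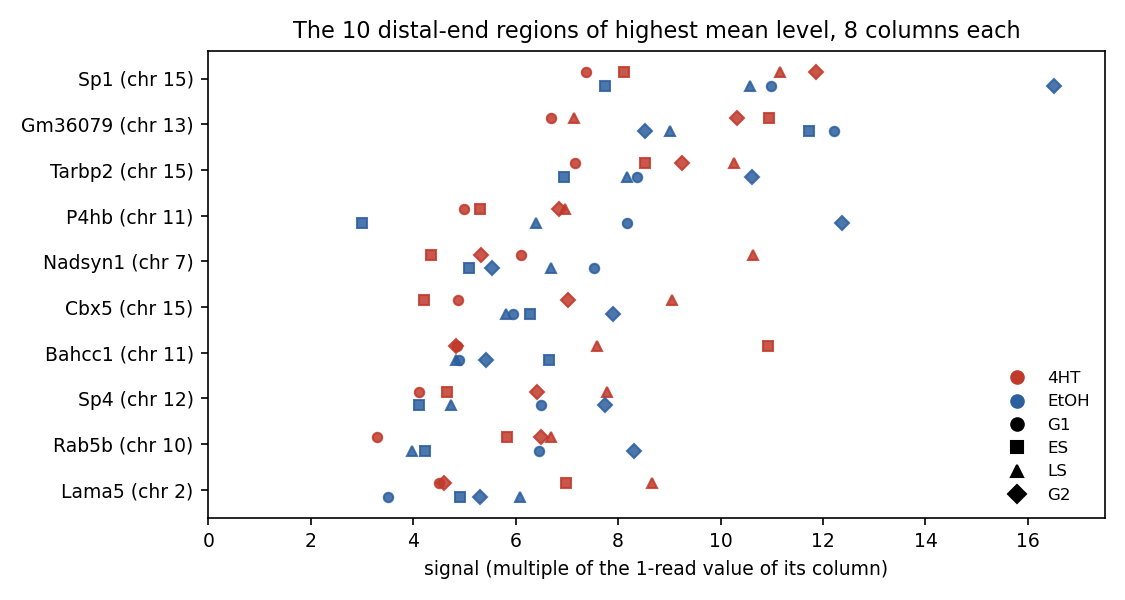
Signal of the 10 distal-end regions with the highest mean level, in multiples of the 1-read value of each column, with 1 mark for each of the 8 columns (colour for treatment, shape for fraction). For all 10 regions the 4HT and EtOH marks overlap, and the Sp1 region reaches 16.5 in EtOH G2.

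Away from promoters the next highest regions were 69228 bp from the start of Tmx3 on chromosome 18 at 5.29, 51810 bp from Gm42360 on chromosome 4 at 4.77, and 1708 bp from the microRNA gene Mir688 on chromosome 15 at 4.59. The Tmx3 region had 3.45, 6.76, 6.03 and 3.76 in 4HT cells, against 4.30, 6.64, 6.54 and 4.84 in EtOH cells, so both ES and LS stood above G1 and G2 in each treatment. Regions near Gm31718 (4.29), Alox5ap (3.99), Phlda2 (3.96), Cd63 (3.85) and Gm41509 (3.49) completed the 10 highest of this kind.

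By chromosome, the highest region touched or neighboured the start of a named gene on most ends. It was the start of Hmgb1, a chromatin architectural protein gene, on chromosome 5 at 4.23, and that of Cth, an enzyme of cysteine synthesis, on chromosome 3 at 3.75. On chromosome 8 it was the start of Tomm20, a receptor of the mitochondrial import machinery, at 4.93, and on chromosome 9 that of Ano10 at 4.30. Ergic2 on chromosome 6 stood at 3.64 and Dock9 on chromosome 14 at 4.10. The highest region of chromosome 4, at 5.03, had Rnf223 as its nearest named gene, and those of chromosomes 16, 17 and 19 lay nearest to the predicted transcripts A630089N07Rik (5.36), Gm20939 (3.46) and Gm19956 (3.27). The same predicted gene start on chromosome 16 was also the outermost region of that chromosome.

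The outermost regions read in every column were mostly weak. On 17 of 19 chromosomes their level lay between 1.15 and 2.90, the exceptions being the A630089N07Rik start and the Gm36079 region. The last region of chromosome 4 covered the starts of Noc2l, a histone acetylation inhibitor gene, and Klhl17 at a level of 1.92. On chromosome 3 the outermost one was the start of Wls, a carrier of secreted Wnt proteins, at 1.40, and on chromosome 5 that of Rfc3, a subunit of the clamp loader of DNA replication, at 1.77. The level did not climb steadily towards the tip: the outermost 250 kb had a median of 1.03, the next 250 kb 1.17, and the bins up to 3 Mb lay between 1.06 and 1.15. The 99 regions in the last 100 kb inside the 3 Mb limit had a median of 1.14 and the 108 in the first 100 kb outside it 1.02. There was no step at the limit over wider bins, since the bins of 250 kb on either side of it had 1.06 and 1.03, and those between 4 and 4.5 Mb 1.146 and 1.154.

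The lists of genes known to lie in distal ends were read through the regions within 10 kb of their starts. Of 19 genes of the imprinted domain of chromosome 7, 18 had such a region, 55 regions in all, with a median level of 1.25. The highest after Dhcr7 were Tssc4 at 4.92, Cars, a transfer RNA synthetase gene, at 4.02 and Kcnq1ot1, the long noncoding RNA of the domain, at 3.77. The highest region near the growth factor gene Igf2 stood at 1.07, with no read in EtOH LS, and the one near H19, a noncoding RNA gene, at 0.578, with a read in 4 of 8 columns. The Kcnq1ot1 region had 2.12, 2.84, 4.44 and 4.86 in 4HT cells, against 4.64, 3.42, 3.85 and 3.95 in EtOH cells, which overlap.

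The HoxC list had 23 regions with a median of 1.35, of which 13 were read in every column. Hoxc13, the most 5′ gene of the cluster, stood apart at 3.15, with 3.19, 2.41, 3.37 and 3.73 in 4HT cells, against 2.34, 2.78, 3.43 and 3.98 in EtOH cells, while the highest regions of the other 8 genes lay between 1.297 and 1.96. The developmental zinc finger list had 32 regions with a median of 1.33. Beyond Sp1 and Sp4 its highest were the shared region near Zic2 and Zic5 at 1.94 and Sp8 at 1.91. Of the telomere maintenance genes listed, only the helicase gene Rtel1 lay in a distal end, and its 2 regions reached 1.54.

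Among the 8 lists the translation and mitochondria list, 28 regions of 10 genes, had the highest median, 1.66, led by Pa2g4, a ribosome-associated factor gene, at 5.44, Tomm20 at 4.93 and Rps26, a ribosomal protein gene, at 3.54. The signalling list, 58 regions of 16 genes, had a median of 1.44, and the cell division list, 26 regions of 8 genes, one of 1.21. By the highest region of each gene, the signalling list was led by the one near Lama5 at 5.57, followed by Itgb1, an integrin chain gene, at 2.84. In the cell division list the highest was the Rab5b start, 8217 bp from that of the cell cycle kinase gene Cdk2, at 5.66, and the start of the cohesin regulator gene Pds5b stood at 2.98. The chemokine receptor genes of chromosome 9, which blood cells use, had 6 regions of 5 genes with a median of 0.827, below the 1.09 of all distal-end regions. Few list regions could be tested singly: 8 of the imprinted domain, 1 of HoxC, 3 zinc finger and 0 telomere maintenance regions. The cell division, signalling, chemokine receptor and translation lists had 7, 11, 1 and 9. In the fit of all columns described below, 0 of these were called in any contrast, where at most 0.0182% of all tested regions were.

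A distal-end region held a read more often than a region elsewhere in all 8 columns. In 4HT cells 71.9%, 79.4%, 81.7% and 78.9% of the distal-end regions held a read in G1, ES, LS and G2, against 67.4%, 76.1%, 80.3% and 73.9% of the other autosomal regions. In EtOH cells the distal-end shares were 82.2%, 74.9%, 73.1% and 84.7%, against 77.7%, 72.7%, 73.0% and 79.7% elsewhere. The mean excess was 3.26 percentage points (exact two-sided sign-flip permutation test, p = 0.00781, the smallest possible, adjusted 0.0339). Among proximal regions alone the excess was 0.701 points (exact permutation p = 0.242), with -2.46 in LS of 4HT cells and -0.628 in LS of EtOH cells. Among regions away from a TSS the mean excess of both treatments was 4.62 points in G1, 2.54 in ES, 0.847 in LS and 5.32 in G2.

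The size of this excess differed by fraction. In 4HT cells it was 4.49 points in G1, 3.33 in ES, 1.48 in LS and 4.98 in G2. In EtOH cells it was 4.52, 2.20, 0.115 and 4.99 points. LS had the smallest excess and G2 the largest in both treatments, and the columns of G1 and G2 did not overlap with those of ES and LS. An exact permutation test of the fraction labels within treatments gave p = 0.0417, the smallest the design allows, and 0.0903 after adjustment over the 13 tests, which does not pass. The mean excess by fraction was 4.503 points in G1, 2.76 in ES, 0.799 in LS and 4.99 in G2, and LS lay below G1 on 15 of 19 chromosomes and below G2 on 14.

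In 4HT cells the depth was 6.78, 9.75, 11.1 and 8.87 M reads in G1, ES, LS and G2, so that LS, with the smallest excess, was the deepest column. In EtOH cells it was 9.96, 8.38, 8.17 and 11.2 M reads, which is the same order as that of the excess. The part of depth in the pattern was not tested. Counting regions above 1 read in place of regions with a read, the excess was 5.20, 3.95, 1.43 and 6.59 points in 4HT cells and 5.70, 3.37, 0.833 and 9.08 points in EtOH cells. The pattern across fractions was weaker for ends of 1 Mb, where the fraction means spanned 2.70 points (exact permutation p = 0.125). The proximal ends had another order, with excesses over other regions of 3.01, 1.94, 2.76 and 1.72 points in 4HT cells and 5.06, 3.32, 4.32 and 2.07 points in EtOH cells, so LS was their second highest fraction. The difference between distal and proximal ends itself varied across fractions by 5.66 points (exact permutation p = 0.0417, adjusted 0.0903).

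**Figure D3:**
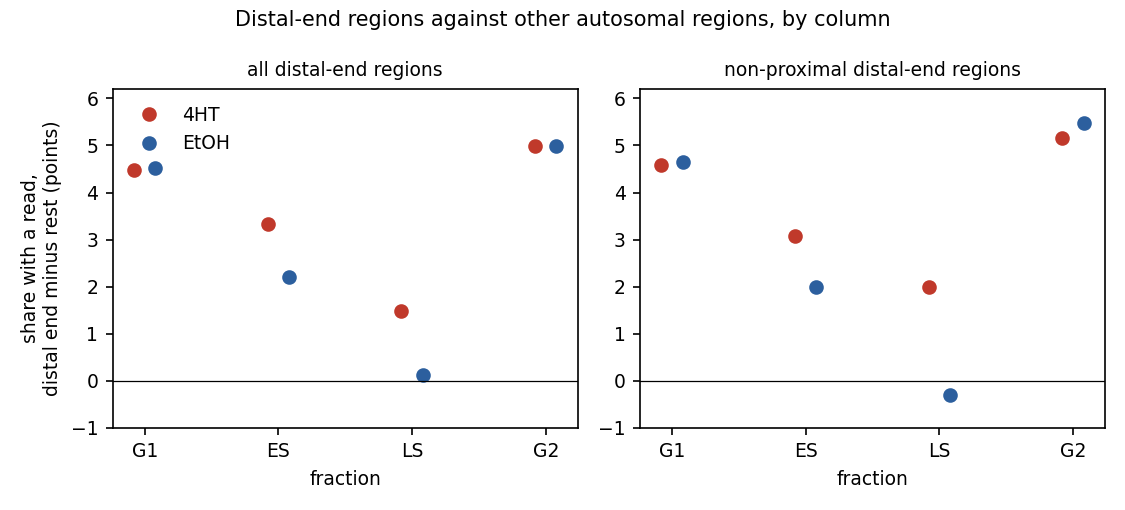
Excess of the share of distal-end regions with a read over the share of other autosomal regions, in percentage points, for each of the 8 columns, over all regions (left) and over regions farther than 1000 bp from a TSS (right). LS stands lowest in both treatments, at 1.48 (4HT) and 0.115 (EtOH) points over all regions, and G2 highest, at 4.98 and 4.99.

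Moving in from the tip, the fractions parted. Relative to regions beyond 20 Mb, the share with a read in the outermost 1 Mb was higher by 3.32 points in G1, 4.41 in ES, 1.55 in LS and 4.84 in G2, as means of both treatments. Between 1 and 2 Mb the values were 5.89, 2.65, 1.01 and 5.89 points, and between 2 and 3 Mb 5.47, 1.52, -0.800 and 4.76. From 3 to 5 Mb, beyond the limit used here, G1 and G2 remained high at 4.59 and 5.10 points while ES stood at 0.269 and LS at -0.603. The excess in G1 and G2 was thus not bounded at 3 Mb, and the ES excess was largest at the tip.

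**Figure D4:**
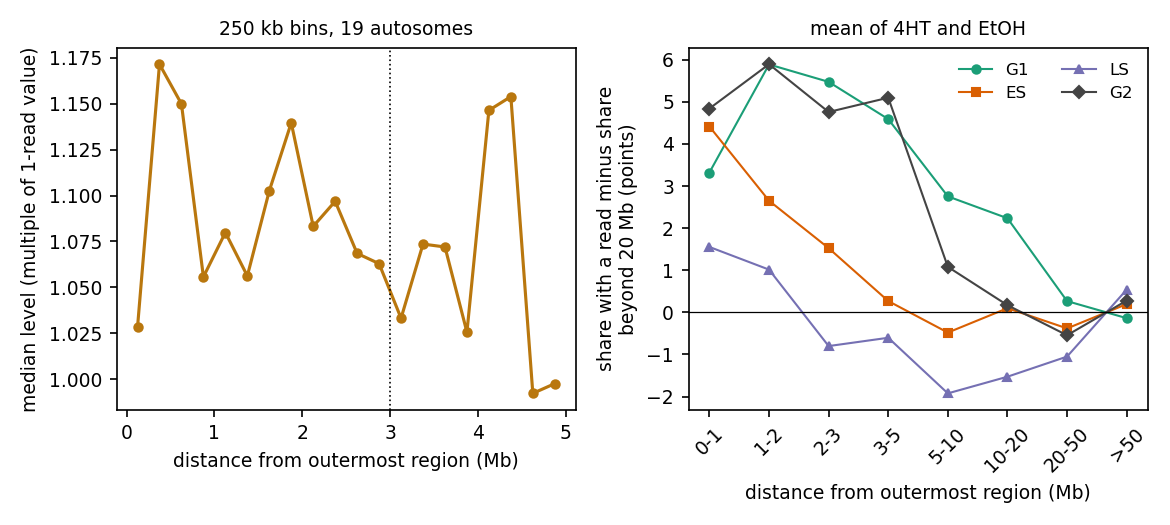
Median level of autosomal regions in bins of 250 kb from the outermost region (left, dotted line at 3 Mb) and the share of regions with a read minus the share beyond 20 Mb in percentage points by fraction, as the mean of 4HT and EtOH (right). G1 and G2 stay above 4.5 points from 1 to 5 Mb, while LS lies between -0.800 and 1.55 points over the outermost 3 Mb.

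Treatment with 4HT changed no distal-end region detectably. Tests of single regions took those of level 2 or more that were read in all 8 columns, which 376 of the 3954 (9.51%) did, 214 of them proximal. In limma fits over all 11010 such regions, 0 of the 376 were called between 4HT and EtOH at an adjusted p of 0.05, where 0% of all tested regions were called. At an unadjusted p under 0.05 there were 10, or 2.66% of the 376, against a background of 5.42% of all regions tested. The median log2 difference was -0.00 for the 376 regions and 0.00 for the others, and 90% of the differences lay between -0.37 and 0.39. With 4HT and EtOH compared in each fraction, 25 regions (6.65%) were higher in all 4 fractions and 25 (6.65%) lower in all 4, against 6.69% and 6.66% of all regions tested.

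The largest difference of one sign in all fractions and lower in 4HT was at a region 17276 bp from the start of Kcnq1, a potassium channel gene of the imprinted domain. It had 1.47, 2.20, 4.43 and 1.95 times the 1-read value in 4HT cells, against 3.63, 4.55, 4.57 and 4.19 in EtOH cells. All but the LS value of 4HT cells lay below every EtOH value, and the log2 difference was -0.61 (SE 0.20, limma adjusted p = 0.887). Regions near Prr13 (-0.60), Ankrd33 (-0.45) and Pard3 (-0.41) followed on the log2 scale.

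On the other side, the start of Atp5b, a subunit gene of mitochondrial ATP synthase, had 6.29, 6.36, 5.83 and 5.48 in 4HT cells, against 3.002, 4.29, 3.09 and 6.201 in EtOH cells. In multiples of the 1-read value the 4HT columns were nearly equal. On that scale the EtOH G2 value lay among them, above the 4HT value in G2. Such multiples are not corrected for depth, which was 8.87 M reads in 4HT G2 and 11.2 M in EtOH G2. In log2 signal centred between columns, 4HT exceeded EtOH by 1.29 in G1, 0.37 in ES, 0.47 in LS and 0.18 in G2. The log2 difference was 0.58 (SE 0.20, limma adjusted p = 0.887). Regions near Gm46661 (0.67), Olfr9 (0.56) and Tomm20 (0.56) had differences of like size, with adjusted p between 0.887 and 0.891.

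Over the tested regions, the median centred log2 signal of the distal ends minus that of other regions differed between 4HT and EtOH by 0.00480 (exact permutation test over the 16 swaps within fractions, p = 1, smallest possible 0.125), a value that took the opposite sign under 5 of 11 alternatives. The excess in the share with a read differed by 0.615 points (p = 0.5 by the same exact test). In the TSS windows of the distal ends, 601 were tested and 0 called between 4HT and EtOH, where 0.0131% of all tested windows were called. At an unadjusted p under 0.05 there were 15 (2.496%), against 5.28% of all tested windows.

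Between fractions too, 0 of the 376 regions were called by limma. The percent called over all regions tested was 0 for ES against G1, 0 for LS against G1 and 0.0182 for G2 against G1. At an unadjusted p under 0.05 there were 26 for ES, 23 for LS and 20 for G2, which is 6.91%, 6.12% and 5.32% of the 376, against 7.13%, 7.28% and 5.9% of all regions tested. The median log2 difference of the distal-end regions was -0.06 for ES, -0.08 for LS and -0.00 for G2, against -0.00 for the other regions in each contrast. In ES 43.1% and in LS 41.8% of the distal-end regions were above G1, against 49.8% and 49.9% of the others. The median centred log2 signal of the distal ends minus that of other regions spanned 0.0831 between fractions (exact permutation p = 0.125, adjusted 0.232).

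**Figure D5:**
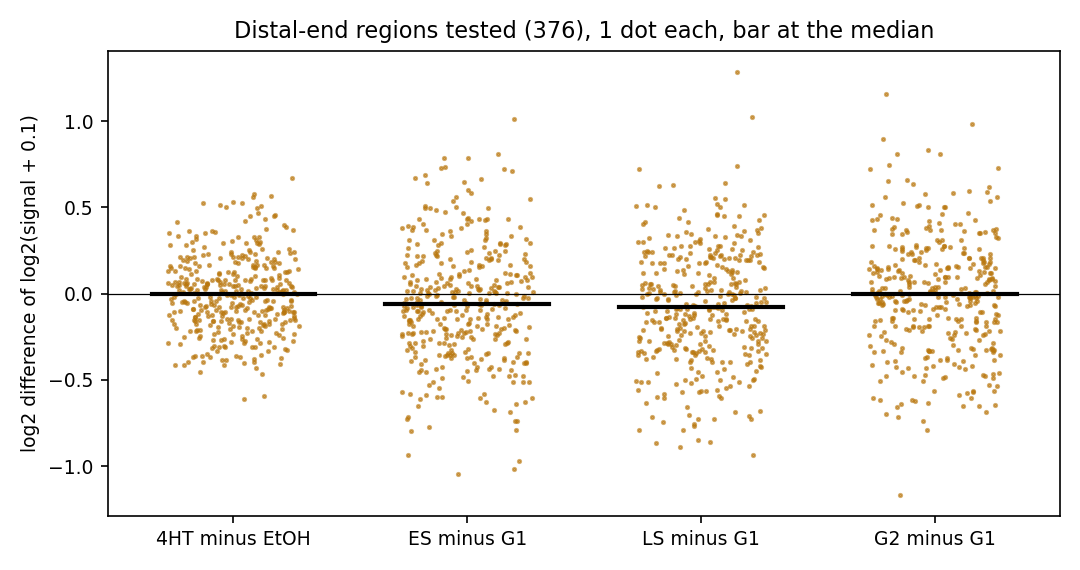
Log2 differences of the 376 tested distal-end regions on the scale log2(signal + 0.1) for 4HT minus EtOH and for ES, LS and G2 minus G1, with 1 dot per region and a bar at the median. The medians are -0.00, -0.06, -0.08 and -0.00, and no region passed the adjusted threshold in any of the 4.

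The region with the largest LS difference was 132 bp long and lay 5474 bp from the start of Lama5, at chr2:180220254-180220385. In 4HT cells it had 4.83 in LS, against 1.83 in G1, and in EtOH cells 7.05 in LS, against 1 in G1, with ES and G2 between these in both treatments. The log2 difference was 1.28 (SE 0.35, limma adjusted p = 0.529). Fitted in limma on the LS and G1 columns alone it was called, with an adjusted p of 0.0484 (SE 0.32). It was 1 of the 376 distal-end regions, where 21 of all 11010 tested regions were called. That fit has fewer residual degrees of freedom than the fit of all columns, and the EtOH G1 value is at the 1-read floor. A region 78820 bp from Gm32590 on chromosome 8 had 6.37 in LS, against 1.63 in G1, in 4HT cells and 3.87, against 1.49, in EtOH cells, a log2 difference of 1.02. These multiples are not corrected for depth, which was 6.78 M reads in G1 and 11.1 M in LS of 4HT cells. In EtOH cells it was 9.96 M in G1 and 8.17 M in LS. The log2 differences are on the scale log2(signal + 0.1), centred between columns.

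A region 54751 bp from the start of Slc35f3 on chromosome 8 was highest in G1 of both treatments. It had 1.61 in ES, 2.12 in LS and 1 in G2, against 2.63 in G1, in 4HT cells. In EtOH cells it had 1.54, 2.21 and 2.47, against 5.90 in G1. Its log2 differences from G1 were -1.04 in ES, -0.89 in LS and -1.16 in G2, with limma adjusted p of 0.509, 0.550 and 0.468. These 3 contrasts share the G1 columns, so they are not separate evidence.

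At the start of Ski, a repressor gene of TGF-beta signalling, ES stood at 1, against 2.56 in G1, in 4HT cells and at 1.45, against 3.98 in G1, in EtOH cells. The log2 difference was -1.01 (SE 0.30, limma adjusted p = 0.509). In the other direction, ES exceeded G1 by 1.01 near Zc3h10, 0.81 near Aurkaip1 and 0.79 near Cth on the log2 scale. G2 exceeded G1 by 1.15 near Vmn2r87, 0.98 near Psmg1 and 0.90 at Rarg, the retinoic acid receptor gamma gene. The Rarg region had 4.59 in G2, against 1.22 in G1, in 4HT cells and 3.74, against 1.69, in EtOH cells. G2 lay below G1 by -0.79 near Sp1 and -0.74 at Nktr, and LS by -0.93 near Nfe2 and -0.87 near Gm15411.

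In the TSS windows of the distal ends, 0 of 601 were called by limma in any fraction contrast. At an unadjusted p under 0.05 there were 40 for ES, 43 for LS and 36 for G2, which is 6.66%, 7.15% and 5.99% of the 601, against 6.78%, 6.9% and 5.64% of all tested windows. The lowest adjusted p were 0.318, 0.167 and 0.566. The percent called over all tested windows was 0.0196 for ES, 0.0718 for LS and 0.0457 for G2.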

How the data were processed

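ATAC-seq signal of 16 libraries in 8 groups was analysed. The authors deposited a table of regions and one of TSS windows, each with 8 columns of coverage signal, 1 per group, taken as pooled over its 2 libraries because no column carries a replicate number. The genome build mm10 and the tools featureCounts and DESeq2 come from the submitters' processing notes, which name no role or version. No aligner, peak caller or coverage program is given in the sources used here. The deposited signal was read as counts-per-million coverage averaged over bases that hold a read, so the smallest value of a column was taken as 1 read. A weak region cannot fall below it, and losses are understated.

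From these values, levels, shares and the sign-flip and label permutation tests were computed with Python 3.11.15, and log2(signal + 0.1), centred by cyclic loess, was fitted with treatment and fraction in limma 3.58.1 under R 4.3.3, with 3 residual degrees of freedom and Benjamini-Hochberg adjustment. The p-values thus rest on how far the pooled columns scatter, and say nothing of separate cultures. On data simulated for 4HT against EtOH over 11010 regions, 50 of 50 regions raised by a log2 change of 2 and 49 of 50 raised by 1 were called. Of those lowered by 1 and 2, 28 and 26 of 50 were called, and 8 calls were false. The simulation gave every region the same normal noise, of the median residual spread, and no fraction effect. It also let signal fall below the 1-read value, which real regions cannot do. These counts are therefore not the power of the tests on the real columns.

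Genes were named by the nearest TSS, from RefSeq tables of GRCm38.p6, with predicted symbols passed over when a named gene lay within 50 kb. Regions named in the text are those of highest level in all, per chromosome and away from a TSS, the outermost ones read in every column, the largest differences of constant sign, and members of the gene lists. Not every region or list gene that this rule covers is printed. The members and lists were chosen with earlier results of these data known. The tests of the share across treatments and fractions, of the proximal ends across fractions and of the TSS windows were added after the values were seen.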

Additional observations from a re-analysis of the deposited data

Results flagged for a closer look

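Across fractions, the share of distal-end regions with a read, relative to other autosomal regions, spanned 4.19 percentage points between the highest and the lowest fraction mean (exact permutation test of fraction labels within treatments, p = 0.0417, the smallest possible, adjusted 0.0903). The same quantity for the proximal ends spanned 2.14 points (p = 0.0417 by the same exact test, adjusted 0.0903), with G1 highest at 4.04 and G2 lowest at 1.90. The distal ends minus the proximal ends spanned 5.66 points (exact permutation p = 0.0417, adjusted 0.0903). These 3 tests were chosen after the values were seen, and none passed after adjustment.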

How the results depend on the processing

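No paired analysis was possible because the columns carry no replicate number, so neither a replicate block nor the omission of single libraries could be fitted. Of 97 results under alternatives, 78 kept their count of calls, or their side of the threshold and any direction. Many of the 78 are counts of called regions or spans between fractions, which have no direction to lose. Among regions read in every column, the level difference from other regions was -0.000464 for all and -0.0134 for non-proximal regions, the promoter difference was 0.0228, no longer past the threshold, and distal minus proximal ends was -0.175, now past it. By means in place of medians, the promoter difference was -0.332, the non-proximal one 0.0539 and distal minus proximal ends -0.110, the last 2 now past the threshold. Ends of 5 Mb gave a promoter difference of 0.0317. Over proximal regions alone the excess in the share with a read was 0.701 points, its 4HT minus EtOH difference -0.0218 and its span over fractions 3.18, and ends of 1 Mb gave a span of 2.70. Counting regions above 1 read, the 4HT minus EtOH difference was -0.453. The centred log2 difference between 4HT and EtOH was -0.0293 for 1 Mb ends, -0.00442 for 5 Mb ends, -0.0199 with no minimum level, -0.0137 for non-proximal regions and -0.0128 without G1. The LS and G1 columns fitted alone called 1 of 376 distal-end regions and 21 of all 11010, where the fit of all columns called 0. The causes were not tested. The depth limits what single regions can show, since the median distal-end region stands at 1 to 1.27 times the 1-read value in each column.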
